A study of Mus musculus with 90 samples.

Results

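The genes described here are the fibroblast growth factor (FGF) genes of the mouse with their receptors and the feedback genes of the pathway, chosen by symbol: every Fgf gene with a number other than Fgf5, the receptors Fgfr1 to Fgfr4, Spry1 to Spry4, Spred1 to Spred3, Dusp6, Il17rd, Etv4 and Etv5. They are 36 of the 24961 genes listed for embryoid bodies and of the 24984 listed for the neural series. Total RNA, depleted of ribosomal RNA, came from mouse embryonic stem cells of the J1 strain and from 2 kinds of differentiated culture made of them. In the embryoid body series (EB), stem cells were collected on day 0 and hanging-drop aggregates on days 6 and 10. In the neural series (NPC, neural progenitor cells), collection was on days 0, 6 and 8 of aggregation with retinoic acid, a signal that directs such aggregates to neural fates. All stem cells had been grown on feeder fibroblasts of mouse embryos, which were taken out before collection.

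Each series held the same lines, which differ in CBX7, the chromodomain subunit of Polycomb repressive complex 1. WT cells have the normal CBX7. In CBX7-CaPS, CBX7 was given a stretch of CBX2, its paralog, that drives chromatin compaction and phase separation (CaPS), and in CBX7-mCaPS the stretch is mutated. The line labelled CBX7 KO stands for a loss of CBX7, and a line labelled CBX7-CaPS-R was deposited in tables of its own. With 5 lines, 2 series and 3 days there were 30 groups of 3 libraries, 90 libraries in all. The labels do not say whether a line is 1 clone or whether the libraries of a group came from separate cultures, so p-values measure the spread between libraries, which may be technical. The RNA of Cbx7 in the libraries labelled KO did not pass the edgeR test described below against WT on any day. Its log2 differences ran from -0.47 on day 0 of the neural series to 1.05 on EB day 10. On EB day 0 it was at 87.8, 111 and 91.8 CPM (read counts scaled to a common library total) in KO. In WT it was at 76.8, 132 and 126 CPM there. The counts do not show whether that RNA still codes for the protein, so KO below means the libraries labelled KO. By the same edgeR test, Cbx7 RNA was higher in CaPS than in mCaPS on EB day 10 (log2 2.60, adjusted p = 0.00636). The same was so on NPC days 6 (1.89, adjusted p = 0.0293) and 8 (2.11, adjusted p = 0.00495). In mCaPS it was below KO on EB day 10 (-2.39, adjusted p = 0.0205) and NPC day 8 (-1.09, adjusted p = 0.0393). The part of these differences in the FGF genes was not tested.

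FGF ligands are secreted proteins that bind, together with heparan sulfate, the receptor tyrosine kinases FGFR1 to FGFR4. The receptors act through RAS and the kinase ERK, which switches on the ETS transcription factors Etv4 and Etv5. It also switches on inhibitors that damp the same route: the Sprouty and SPRED proteins, the ERK phosphatase DUSP6 and the membrane protein IL17RD (SEF). In mouse embryonic stem cells FGF4 made by the cells themselves is the ligand that moves them from self-renewal toward differentiation. In the early neural tube the receptors mark progenitor cells, while FGF8 and its relatives pattern the growing tail end of the body axis, where retinoic acid opposes them.

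The 36 genes lie on many chromosomes. Fgf3, Fgf4 and Fgf15 are neighbours on chromosome 7 (mm10), at 144838612 to 144843348, 144861386 to 144865245 and 144896532 to 144900951. They lie within 62340 bases on the same strand, with no other gene listed for embryoid bodies between them. Promoters were found in RefSeq (GRCm38.p6) for 26 of the 36 genes; Etv4, Fgf1, Fgf8, Fgf15, Fgf16, Fgf17, Fgf20, Fgfr1, Spry3 and Spry4 had no entry. The 250 bases before the start are shown for 3 genes that fell in both or in the neural series (Fgf4, Etv5 and Spry2) and for 2 receptors that rose in both (Fgfr2 and Fgfr3). Capitals mark CpG dinucleotides, the sites of DNA methylation. They are Fgf4 at chr7:144861136-144861385 on the plus strand, Etv5 at chr16:22439571-22439820 on the minus strand, Spry2 at chr14:105896820-105897069 on the minus strand, Fgfr2 at chr7:130266809-130267058 on the minus strand and Fgfr3 at chr5:33721474-33721723 on the plus strand.
Fgf4: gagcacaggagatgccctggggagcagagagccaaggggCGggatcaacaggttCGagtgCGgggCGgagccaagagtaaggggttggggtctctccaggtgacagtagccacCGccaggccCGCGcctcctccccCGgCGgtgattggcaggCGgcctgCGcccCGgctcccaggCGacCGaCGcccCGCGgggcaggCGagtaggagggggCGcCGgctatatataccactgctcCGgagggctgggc
Etv5: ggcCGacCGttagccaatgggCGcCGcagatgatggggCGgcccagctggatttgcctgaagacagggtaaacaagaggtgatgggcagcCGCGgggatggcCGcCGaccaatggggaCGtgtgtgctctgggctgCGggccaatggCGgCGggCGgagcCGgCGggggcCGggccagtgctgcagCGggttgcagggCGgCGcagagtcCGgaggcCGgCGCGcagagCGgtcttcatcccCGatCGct
Spry2: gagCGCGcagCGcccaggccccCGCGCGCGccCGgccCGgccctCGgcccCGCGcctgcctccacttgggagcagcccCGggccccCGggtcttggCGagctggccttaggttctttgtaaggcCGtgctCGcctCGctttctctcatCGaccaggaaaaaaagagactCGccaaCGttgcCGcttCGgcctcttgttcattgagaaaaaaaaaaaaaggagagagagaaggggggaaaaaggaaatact
Fgfr2: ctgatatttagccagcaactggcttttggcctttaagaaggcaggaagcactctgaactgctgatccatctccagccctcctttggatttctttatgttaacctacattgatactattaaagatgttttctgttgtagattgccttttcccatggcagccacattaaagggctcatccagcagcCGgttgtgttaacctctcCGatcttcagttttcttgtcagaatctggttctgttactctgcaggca
Fgfr3: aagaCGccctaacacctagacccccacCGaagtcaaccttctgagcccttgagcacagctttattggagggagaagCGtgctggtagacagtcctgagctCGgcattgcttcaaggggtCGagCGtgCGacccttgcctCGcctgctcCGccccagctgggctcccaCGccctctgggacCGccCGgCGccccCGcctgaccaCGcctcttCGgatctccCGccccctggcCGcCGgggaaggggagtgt

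The Fgf4, Etv5 and Spry2 stretches hold 21, 27 and 23 CpG and the Fgfr3 stretch 19, against 2 in that of Fgfr2. RefSeq has another promoter for Etv5 and for Fgfr3, with 18 and 24 CpG, and the stretch shown is the one farther upstream. Bases G and C make up 71.2% of the Fgf4 stretch and 66.8% of the Fgfr3 stretch, against 44.0% of the Fgfr2 stretch. Over the 34 promoters of the 26 genes the median G and C content was 62.2% and the median observed over expected CpG ratio 0.69. Over all 32851 promoters of the table these medians were 52.4% and 0.37. The motif CCGGAAG of ETS factors, searched on both strands, was in none of the 34 promoters and in 6.91% of all promoters, which says only that these letters are not in these windows.

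Of the 36 genes, 35 passed the filter on low counts in EB (Fgf6 did not) and 33 in NPC (Fgf6, Fgf16 and Fgf20 did not). The tables of the CBX7-CaPS-R line list 33 of them; Spred3, Spry2 and Spry4 were not analysed there. Libraries of WT, CaPS, mCaPS and KO held 10.6 M to 55.9 M counts in EB and 11.8 M to 59.3 M in NPC. Those of CBX7-CaPS-R held 11 M to 110 M and 11.7 M to 29.1 M in tables that list part of the genes. These totals include Rn45s, a precursor of ribosomal RNA. It took 2.73% to 88.7% of the counts in EB and 4.24% to 50.3% in NPC. In CBX7-CaPS-R it took 25.0% to 65.2% and 27.8% to 80.5%. In EB it took 88.7% in library 3 of mCaPS day 0 and 63.0% in library 3 of CaPS day 6. Their library sizes after scaling were 6.26 M and 5.87 M counts. Levels are CPM after scaling by edgeR's TMM method, fold changes are log2 ratios with their standard error (SE), and a gene is said to rise or fall when its p from edgeR's quasi-likelihood test, adjusted over all genes, is below 0.05. In every group n = 3. In 6 EB libraries, those of WT and CaPS numbered 1, 42.1% to 43.5% of the low counts were even, against 73.5% to 94.1% in the other 30. On day 0 they gave low levels of some FGF genes: Spred2 was at 11.9, 87.7 and 63.5 CPM in WT and 9.01, 77.7 and 71.7 in CaPS, Fgfr1 at 31.9, 132 and 196 and 30.4, 169.96 and 156, with the library numbered 1 first each time. Counts of FGF genes called in EB are therefore also given without them, other than for CBX7-CaPS-R, which has its own fit. Libraries 2 and 3 of WT and CaPS in EB in turn differed from those of mCaPS and KO. On day 10 Gapdh was at 445 and 128 CPM in those of WT and at 399 and 51.1 in those of CaPS. It was at 14.5 to 17.7 CPM in mCaPS and 12.8 to 20.2 in KO.

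On day 0 of WT, both ETS targets and the inhibitors Spry2, Spry4 and Dusp6 had a higher mean RNA level per length of transcript than any ligand, while the inhibitor Spry3 was among the lowest of the 36 genes (0.0534 ± 0.0139 CPM per kilobase in EB). Per kilobase of exon, Etv5 led with 64 ± 17.6 CPM (mean ± SD) in EB, followed by the Sprouty gene Spry2 (52.5 ± 29.2), Dusp6 (41.3 ± 7.8), Etv4 (38.3 ± 5.98) and Spry4 (34.1 ± 17.3). Fgf4 came next and was the highest of the ligands, with 32 ± 4.42 CPM per kilobase. Neighbours in that order from Etv5 down to Fgf4 differ by less than their SD. Fgfr1 was the leading receptor, at 23.9 ± 16.5, against 3.1 ± 1.36 for Fgfr2, 0.338 ± 0.125 for Fgfr4 and 0.259 ± 0.0725 for Fgfr3. The next ligand was Fgf17, a relative of Fgf8, at 17.5 ± 4.96. Day 0 of the neural series gave a like order at its top, with Spry2 at 92.2 ± 10.3, Etv5 at 61.8 ± 5.2, Spry4 at 47.1 ± 9.82, Etv4 at 46.7 ± 7.56, Dusp6 at 38.6 ± 4.56 and Fgf4 at 34.8 ± 10.1 CPM per kilobase.

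**Figure D1:**
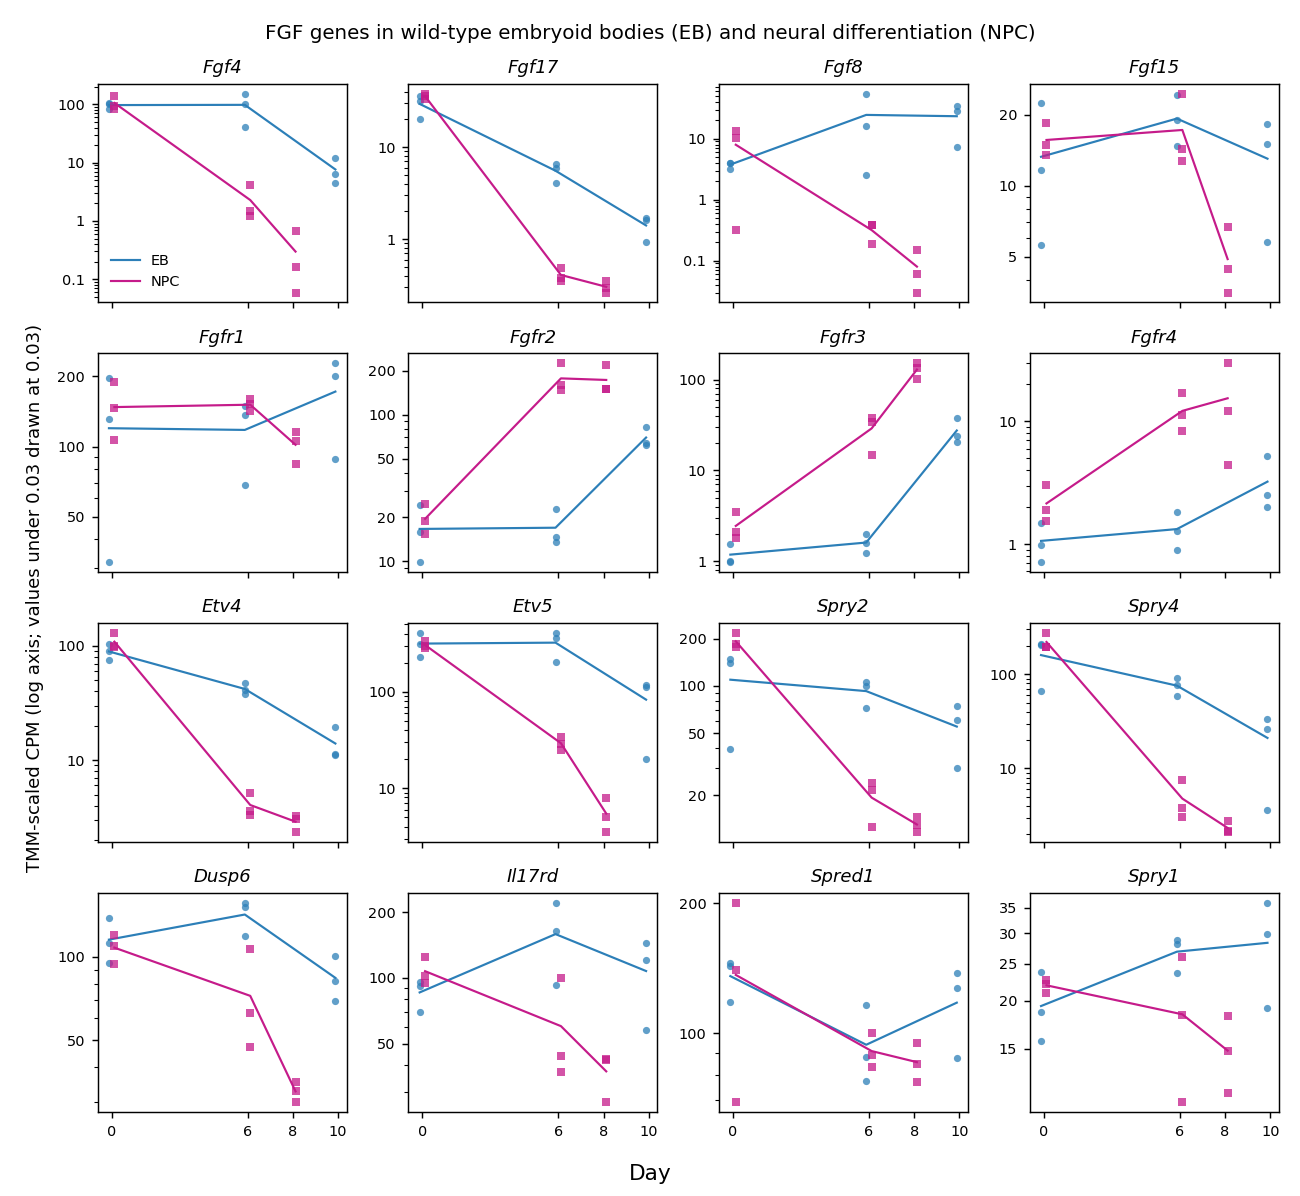
Levels of FGF genes in the WT libraries of both series by day, in CPM on a log axis. Each point is 1 library and each line joins the means of 3 libraries. Fgf4, Etv4, Etv5 and Spry4 go down in both series, further in the neural one, while Fgfr2 and Fgfr3 go up.

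In WT embryoid bodies, day 10 differed from day 0 at 18 of the 35 genes tested, 10 higher and 8 lower, where 29.2% of all genes passed the test, 14.7% higher and 14.5% lower. The genes that fell were the ligands Fgf2, Fgf4, Fgf7, Fgf17 and Fgf18, both ETS targets and Spry4. Those that rose were 3 of the 4 receptors, the secreted ligands Fgf3, Fgf8, Fgf9, Fgf10 and Fgf16 and the intracellular Fgf11 and Fgf13. The median fold over the 35 genes was -0.02, with 17 of 35 above 0, and over all genes -0.02. Without the 6 libraries that stand apart 17 passed: Fgf8, Fgf13 and Fgfr4 did not, and Spry1 and Spry2 did.

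Fgf4, the ligand of the stem cells themselves, was at 107, 102 and 81.6 CPM in the 3 libraries of day 0, 153, 40.3 and 101 on day 6 and 4.4, 6.31 and 12.2 on day 10, a fall of 3.66 ± 0.64 on the log2 scale (adjusted p = 8.66e-05). Its day 10 libraries lie below every earlier one, while days 0 and 6 overlap. Fgf17 went from 32, 36.4 and 20.1 CPM to 4.05, 5.98 and 6.58 on day 6 and 0.934, 1.61 and 1.68 on day 10 (log2 -4.38 ± 0.47, adjusted p = 3.25e-07) and did not overlap between days. Fgf8, which is needed for cells to leave the primitive streak, took the other course, from 3.98, 3.23 and 4.06 CPM to 2.53, 54.8 and 16.2 on day 6 and 7.43, 28.7 and 33.8 on day 10 (log2 2.63 ± 0.98, adjusted p = 0.0418). Its spread on days 6 and 10 is wide, with the library numbered 1 lowest on both. The related Fgf18, a ligand of bone and lung growth, fell from 1.13, 6.95 and 3.24 to 0.311, 0.471 and 1.29 CPM (log2 -2.42 ± 0.79, adjusted p = 0.0204), its groups overlapping at 1.13 and 1.29 CPM. Fgf8 did not pass with any 1 of the 6 libraries other than library 1 of WT day 10 left out (adjusted p 0.0881 to 0.114). The call of Fgf18 was lost with library 2 of WT day 0 or library 1 or 2 of WT day 10 left out (adjusted p 0.0843 to 0.158).

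Ligands that mesenchyme sends to epithelium moved both ways. Fgf10, which acts in limb and lung buds, was at 1.54, 6.58 and 11.5 CPM on day 0, 0.788, 6.96 and 4.08 on day 6 and 18.4, 23.3 and 23.3 on day 10 (log2 1.71 ± 0.60, adjusted p = 0.0306). Fgf3, a ligand of inner ear and hindbrain, rose from 0.356, 0.558 and 0.53 to 10.9, 2.39 and 5.75 CPM (log2 3.69 ± 0.57, adjusted p = 2.16e-05). Both were above all day 0 libraries on day 10, and Fgf10 did not pass with library 1 or 2 of WT day 0 or library 2 or 3 of WT day 10 left out (adjusted p 0.0637 to 0.139). Fgf7, known as keratinocyte growth factor and made by fibroblasts, fell from 4.21, 11.4 and 19.7 CPM to 0.113, 0.0363 and 0.0954 by day 6 (log2 day 10 against day 0 -6.58 ± 0.87, adjusted p = 3.17e-06, with 10 counts in the 3 day 10 libraries). Fgf2, a broad-acting ligand, went from 0.297, 3.01 and 3.2 to 0.0445, 0.0392 and 0.0525 CPM (log2 -5.48 ± 1.23, adjusted p = 0.00131, with 4 counts in the 3 day 10 libraries). Markers of feeder fibroblasts fell with these last 2 by day 6. The 10 genes summed to 304 to 2829 CPM in the day 0 libraries. On day 6 they summed to 17 to 49.7 CPM, with 1 of the 10 at 0 in each library. By day 10 the sum had risen to 140.2 to 238 CPM, while Fgf2 and Fgf7 stayed low. Over the whole course 6 of 10 markers fell. In bulk RNA fewer cells of a type and less RNA per cell cannot be told apart, and the part of feeder cells in the fall of Fgf2 and Fgf7 was not tested.

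Fgf9 and Fgf16, of a subfamily with roles in gonad and heart, had 3 and 2 counts in all WT day 0 libraries of EB, so no fold is given. On day 10 Fgf9 was at 0.4, 0.706 and 0.42 CPM and Fgf16 at 4.72, 1.37 and 2.28, both above every day 0 library. Fgf11 and Fgf13 belong to the FGFs that stay in the cell and bind sodium channels. Fgf11 rose from 0.95, 1.97 and 2.18 to 1.51, 8.08 and 6.33 CPM (log2 1.62 ± 0.60, adjusted p = 0.0397), with groups that overlap through library 1 of day 10. Fgf13 rose from 1.96, 2.53 and 2.21 to 4.05, 5.45 and 5.15 CPM (log2 1.13 ± 0.43, adjusted p = 0.0484), with no overlap. Fgf11 did not pass with any 1 of the 6 libraries other than library 1 of WT day 10 left out (adjusted p 0.0541 to 0.183), and Fgf13 did not pass with any 1 of the 6 libraries left out (adjusted p 0.0526 to 0.129).

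Among receptors, 3 of 4 rose. Fgfr3, whose signal slows growth of cartilage, was at 1.01, 1.56 and 0.971 CPM on day 0, 1.24, 1.6 and 1.98 on day 6 and 37.9, 20.5 and 24.2 on day 10 (log2 4.54 ± 0.63, adjusted p = 6.69e-06). Fgfr2, the receptor of FGF7 and FGF10 in epithelia, was at 15.7, 24.2 and 9.82, 22.8, 13.4 and 14.5 and 82.7, 64.1 and 62.5 CPM on the same days (log2 2.07 ± 0.55, adjusted p = 0.00496). For both, days 0 and 6 overlap and day 10 stands clear above them. Fgfr4, the receptor of bile acid control in liver, rose from 0.712, 1.49 and 0.993 to 2.002, 2.51 and 5.17 CPM (log2 1.59 ± 0.61, adjusted p = 0.0489), with no overlap, and did not pass with any 1 of the 6 libraries other than library 1 of WT day 10 left out (adjusted p 0.0575 to 0.251). Fgfr1, the main receptor of embryonic stem cells, did not pass: it was at 31.9, 132 and 196 on day 0 and 88.1, 201 and 228 on day 10, a log2 difference of 0.52 ± 0.56, adjusted p = 0.524, and its annotated exons overlap those of the antisense gene Gm16159 over 125 bases.

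Both ETS targets and Spry4 fell, and the other inhibitors did not pass the test. Etv5 was at 231, 404 and 309.997 CPM on day 0, 201, 362 and 402 on day 6 and 20.2, 111 and 117 on day 10 (log2 -1.93 ± 0.497, adjusted p = 0.00414). Etv4 went from 89.9, 75.2 and 103 through 40.9, 38 and 47 to 11.1, 11.2 and 19.6 CPM (log2 -2.67 ± 0.37, adjusted p = 6.7e-06), lower on each successive day without overlap. Spry4 was at 66.7, 204 and 209.6, 58.7, 76.7 and 91.9 and 3.65, 25.9 and 33.6 CPM (log2 -2.92 ± 0.67, adjusted p = 0.00149). For both Etv5 and Spry4 library 1 was the lowest of day 10. Spry2 was at 39.4, 140.5 and 149 on day 0 and 29.8, 60.4 and 74.9 CPM on day 10 (log2 -0.99 ± 0.47, adjusted p = 0.109), and it did pass without the 6 libraries that stand apart (log2 -1.11, adjusted p = 0.000914) and without library 1 of WT day 0 alone (log2 -1.39, adjusted p = 0.0267). Dusp6 was at 112, 95.5 and 139 on day 0 and 69.4, 101 and 82 on day 10 (log2 -0.46 ± 0.23, adjusted p = 0.145). Il17rd was at 70.1, 91.6 and 95.9 and 57.7, 121 and 144 (log2 0.32 ± 0.28, adjusted p = 0.421). The SPRED gene Spred1 was at 146, 118 and 143 and 127, 87.8 and 138 CPM (log2 -0.20 ± 0.30, adjusted p = 0.651).

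By day 6 of EB, 5 genes had passed against day 0, Fgf13 higher and Fgf2, Fgf7, Fgf17 and Fgf18 lower, where 7.88% of all genes passed. Between days 6 and 10, 11 passed, where 16.2% of all genes did: Fgf3, Fgf10, Fgf16, Fgfr2 and Fgfr3 rose, and Dusp6, Etv4, Etv5, Fgf4, Fgf17 and Spry4 fell. Between these days Fgf4 fell by 3.67 ± 0.64, Etv5 by 1.96 ± 0.498, Spry4 by 1.84 ± 0.64 and Dusp6 by 0.76 ± 0.24 on the log2 scale, while none of these 4 had passed by day 6. Without the 6 libraries that stand apart, 6 genes passed by day 6, with Il17rd added, and 8 between days 6 and 10, where Dusp6, Fgf16 and Fgfr2 did not. In the first interval Fgf13 did not pass with any 1 library of WT day 0 or library 2 of WT day 6 left out (adjusted p 0.0531 to 0.2), and neither did Fgf18 with any 1 of the 6 libraries other than library 1 of WT day 0 left out (adjusted p 0.0624 to 0.199). Fgf2 was lost there with any 1 of the 6 libraries other than library 1 of WT day 0 left out (adjusted p 0.0536 to 0.0833). In the second, Dusp6 did not pass with library 1 or 2 of WT day 6 or library 1 or 3 of WT day 10 left out (adjusted p 0.071 to 0.116), and neither did Spry4 with any 1 of the 6 libraries other than library 3 of WT day 10 left out (adjusted p 0.0678 to 0.178). Fgf16 was lost there with library 3 of WT day 6 left out (adjusted p = 0.056). The 6 markers of pluripotent cells, of which all 6 fell by day 10, summed to 1870.3 to 2379 CPM on day 0 and 82.6 to 272 on day 10. On day 6 their sum lay between, at 861 to 1154 CPM.

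In the neural series of WT, day 8 differed from day 0 at 24 of the 33 genes tested, 8 higher and 16 lower, where 52.4% of all genes passed, 27.5% higher and 24.9% lower. The median fold over the 33 genes was -0.67, with 11 of 33 above 0, against 0.05 over all genes. Both ETS targets, 2 of 4 Sprouty genes, 2 of 3 SPRED genes, Dusp6 and Il17rd fell, as did 7 ligands and the receptor Fgfr1. Those that rose were again Fgfr2, Fgfr3, Fgfr4, Fgf9, Fgf11 and Fgf13, with Fgf12 and Spry3.

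Fgf4 went from 82.8, 140.2 and 93.4 CPM on day 0 to 1.2, 1.46 and 4.2 on day 6 and 0.0593, 0.162 and 0.676 on day 8 (log2 -8.55 ± 0.75, adjusted p = 7.11e-10). Spry4 went from 194, 274 and 194 to 7.45, 3.05 and 3.82 and 2.73, 2.15 and 2.1 CPM (log2 -6.56 ± 0.68, adjusted p = 1.23e-08). Spry2 went from 217, 184 and 176 to 23.9, 12.6 and 21.7 and 12.9, 11.7 and 14.6 (log2 -3.88 ± 0.38, adjusted p = 4.3e-09). Every day 6 library of these 3 genes lay below every day 0 library. Etv5 was at 285, 294 and 333, 34.3, 28.7 and 24.7 and 3.5, 5.01 and 7.84 CPM on days 0, 6 and 8 (log2 -5.81 ± 0.38, adjusted p = 3.83e-12). Etv4 was at 97.6, 129 and 99.8, 5.19, 3.61 and 3.34 and 2.34, 3.26 and 3.08 CPM (log2 -5.23 ± 0.56, adjusted p = 2.05e-08). Of the pair, Etv5 fell again between days 6 and 8 (log2 -2.43 ± 0.33, adjusted p = 9.29e-05), and Etv4 did not pass there (adjusted p = 0.611).

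Of the remaining inhibitors Dusp6, Il17rd, Spred1 and Spred2 fell, Spry3 rose, and Spry1 and Spred3 did not pass. Dusp6 was at 110.03, 119.8 and 94.5 CPM on day 0, 107, 47.2 and 62.7 on day 6 and 35.4, 32.7 and 29.9 on day 8 (log2 -1.73 ± 0.36, adjusted p = 0.000213). Il17rd was at 102, 95 and 125, 99.9, 43.9 and 37 and 42.3, 27.2 and 42.9 CPM (log2 -1.52 ± 0.36, adjusted p = 0.000832). Day 8 was below day 0 in every library of both genes, and 1 day 6 library of each was still at its day 0 level. Spred2 went from 57.6, 77.5 and 73.7 to 39.3, 37.7 and 42.1 CPM (log2 -0.81 ± 0.17, adjusted p = 0.000186). Spred1 went from 69.3, 200.3 and 139.8 to 94.9, 77.1 and 85 (log2 -0.67 ± 0.28, adjusted p = 0.0454), the latter with overlap. Spry1, which did not pass, was at 21, 22.2 and 22.7 on day 0 and 14.8, 11.5 and 18.2 on day 8. Spred3, which also did not pass, was at 22.6, 16.7 and 19.5 and 19.3, 11.5 and 9.08 CPM. Spry3 rose from 0.0851, 0.78 and 0.942 to 2.2, 1.24 and 2.25 CPM (log2 1.62 ± 0.51, adjusted p = 0.00979). Spred1 did not pass with library 2 or 3 of WT day 0 or library 2 or 3 of WT day 8 left out (adjusted p 0.0877 to 0.428). Spry3 did not pass with library 1 of WT day 0 left out (adjusted p = 0.0603).

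Among secreted ligands, Fgf17 went from 38.2, 36 and 33.1 CPM on day 0 to 0.489, 0.352 and 0.382 on day 6 (log2 day 8 against day 0 -6.86 ± 0.67, adjusted p = 4.31e-09). Fgf8 was uneven on day 0, at 13.2, 0.312 and 10.3 CPM, and 0.0593, 0 and 0.15 on day 8 (log2 -6.88 ± 1.32, adjusted p = 9.21e-05, with 6 counts in the 3 day 8 libraries). Library 2 of day 0 lay within the day 6 range of Fgf8, 0.188 to 0.382 CPM. Fgf15, a gut hormone that the embryonic brain also makes, was at 14.9, 18.5 and 13.5 CPM on day 0 and 6.71, 3.53 and 4.43 on day 8 (log2 -1.68 ± 0.62, adjusted p = 0.025). Fgf10 fell from 8.97, 12.3 and 4.78 to 1.42, 3.23 and 1.88 CPM (log2 -1.99 ± 0.68, adjusted p = 0.0156), the opposite of its course in EB. Fgf1, the ligand that binds all the receptors, fell from 0.51, 0.78 and 2.1 to 0.0593, 0.269 and 0.3 (log2 -2.43 ± 0.78, adjusted p = 0.0108). Some of these calls rested on single libraries. Fgf15 did not pass with library 2 of WT day 0 or library 2 or 3 of WT day 8 left out (adjusted p 0.0652 to 0.0935). Fgf10 did not pass with library 2 of WT day 0 or library 1 or 3 of WT day 8 left out (adjusted p 0.0516 to 0.0651), and Fgf1 with library 3 of WT day 0 left out (adjusted p = 0.103). Fgf7 fell from 10.5, 26 and 3.3 CPM to 0.178, 0.269 and 0 (log2 -6.38 ± 1.07, adjusted p = 1.58e-05), while the 10 feeder markers, of which 9 fell, summed to 305 to 3226 CPM on day 0 and 67.9 to 226 on day 8, with 1 of 10 at 0 in library 3 of day 8. Their part in the fall of Fgf7 was not tested. Fgf9, first known as a growth factor of glia, rose from 0.34, 0.416 and 0.0362 to 3.37, 3.45 and 2.29 on day 6 and 1.39, 2.37 and 2.48 CPM on day 8 (log2 2.93 ± 0.74, adjusted p = 0.00152).

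Of the 4 intracellular FGFs, 3 rose. Fgf13, whose gene is linked to neuronal migration, was at 4.51, 1.98 and 4.93 CPM on day 0, 6.53, 7.37 and 4.64 on day 6 and 17.4, 17 and 14.3 on day 8 (log2 2.10 ± 0.45, adjusted p = 0.000309). Fgf12 went from 0.425, 0.364 and 0.0725 to 2.43, 2.31 and 2.4 CPM (log2 3.04 ± 0.70, adjusted p = 0.000677). Fgf11 went from 2.34, 1.77 and 2.75 to 3.77, 17.4 and 10.2 (log2 2.20 ± 0.59, adjusted p = 0.00294). The groups of all 3 do not overlap between days 0 and 8. Fgf14 did not pass, at 0.766, 0.312 and 0.652 CPM on day 0 and 1.22, 0.646 and 2.48 on day 8.

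The receptors moved in both directions. Fgfr3 was at 3.44, 1.79 and 2.1 CPM on day 0, 14.6, 34.3 and 38.3 on day 6 and 102, 151 and 135 on day 8 (log2 5.73 ± 0.69, adjusted p = 1.2e-07), and no 2 of its days overlap. Fgfr2 was at 24.4, 15.3 and 18.7, 158, 224 and 148 and 218, 149 and 150.1 CPM (log2 3.15 ± 0.28, adjusted p = 7.06e-10), with days 6 and 8 overlapping above day 0. Fgfr4 went from 3.02, 1.53 and 1.88 to 4.42, 29.6 and 12.2 CPM (log2 2.85 ± 0.51, adjusted p = 4.16e-05) with a wide spread on day 8. Fgfr1 fell from 190.1, 146 and 107 to 84.6, 115 and 106 CPM (log2 -0.54 ± 0.23, adjusted p = 0.0488), with groups that overlap, and it did not pass with library 1 or 2 of WT day 0 or library 1 or 3 of WT day 8 left out (adjusted p 0.0796 to 0.241). Per kilobase, day 8 held 32.3 ± 7.35 CPM of Fgfr2, 28.4 ± 5.57 of Fgfr3, 20.3 ± 3.13 of Fgfr1 and 4.89 ± 4.1 of Fgfr4; on day 0 of the same series Fgfr1 had 29.4 ± 8.26, Fgfr2 3.64 ± 0.86 and Fgfr3 0.537 ± 0.193. Fgfr2 and Fgfr3 on day 8 lie within an SD of each other.

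By day 6, 16 genes had passed against day 0 (7 higher and 9 lower, where 37.3% of all genes passed). Between days 6 and 8, 7 passed, where 7.34% of all genes did: Fgfr3, Fgf13 and Fgf18 rose, and Etv5, Fgf4, Dusp6 and Spred2 fell. Fgf18 had dipped on day 6, at 0.816, 0.939 and 0.763 CPM, and was at 3.12, 7.83 and 5.97 on day 8 against 3.1, 8.82 and 3.62 on day 0. Calls between days 6 and 8 rested on single libraries too. Fgf18 was lost with library 2 or 3 of WT day 6 or library 2 of WT day 8 left out (adjusted p 0.0508 to 0.0714). Fgfr3 was lost with any 1 library of WT day 6 or library 2 of WT day 8 left out (adjusted p 0.0563 to 0.093). Fgf4 was lost with library 3 of WT day 6 or library 2 of WT day 8 left out (adjusted p 0.0523 to 0.0781). Etv5 and Spred2 passed with each library left out, while Dusp6 was lost with any 1 of the 6 libraries other than library 2 of WT day 6 left out (adjusted p 0.0787 to 0.244). Fgf13 was lost with any 1 of the 6 libraries left out (adjusted p 0.0636 to 0.21). The pluripotency markers, of which 6 of 6 fell by day 8, summed to 2375 to 2706 CPM on day 0 and 16.3 to 51.3 on day 8, and the neuron markers, of which 3 of 5 rose, to 196 to 248 and 774 to 1663 CPM.

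**Figure D2:**
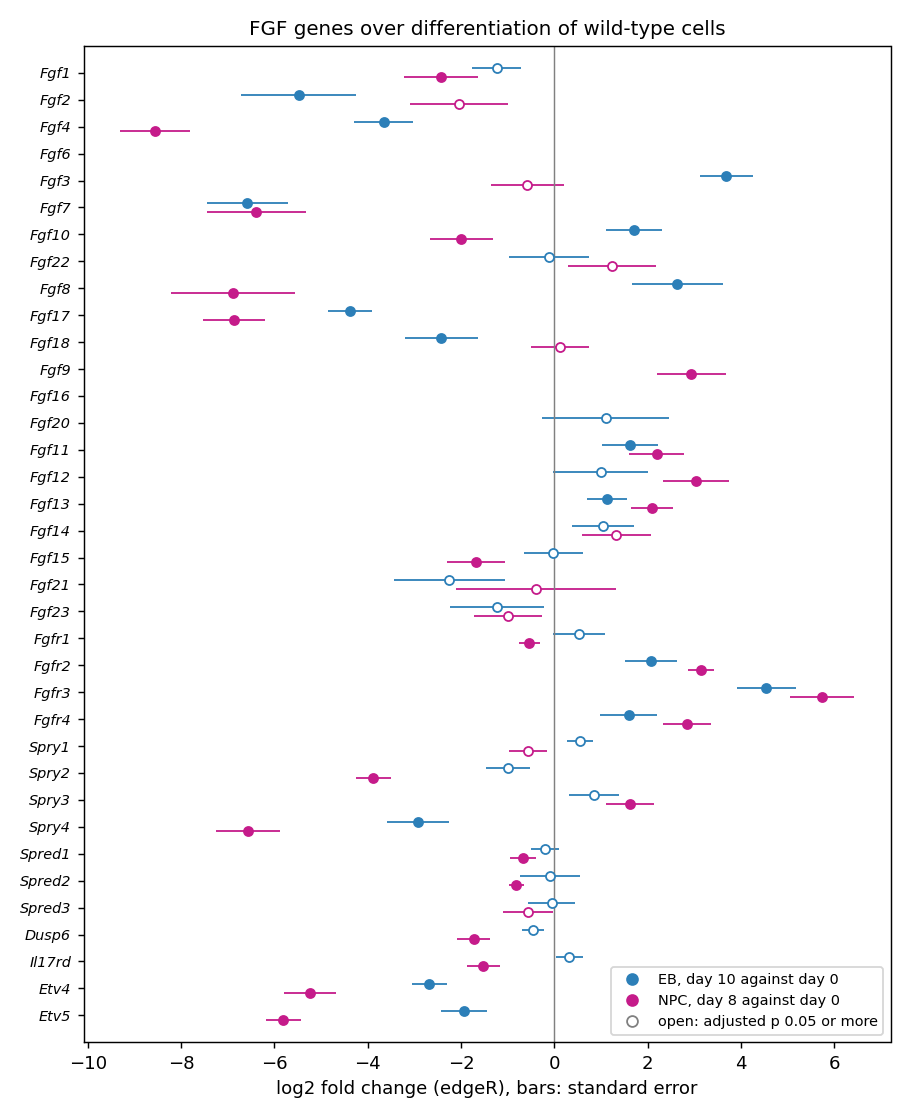
Log2 fold changes of FGF genes in WT over the whole course, 1 row a gene, with embryoid bodies (day 10 against day 0) in blue and the neural series (day 8 against day 0) in magenta. Bars are 1 SE, and open points have an adjusted p of 0.05 or more. Folds against a group of 3 libraries with 3 counts or fewer in all are left out. Fgf8 and Fgf10 lie right of 0 in embryoid bodies and left of 0 in the neural series.

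Of the 33 genes tested in both series, 14 passed in both over the whole course: 6 rose in both (Fgf9, Fgf11, Fgf13, Fgfr2, Fgfr3 and Fgfr4), 6 fell in both (Etv4, Etv5, Fgf4, Fgf7, Fgf17 and Spry4) and 2, Fgf8 and Fgf10, moved in opposite directions. Another 6 passed in neither: Fgf14, Fgf21, Fgf22, Fgf23, Spred3 and Spry1. Over all genes 29.2% passed in EB and 52.4% in NPC. The share of all genes that passed in both was not counted, so these numbers cannot be set against it.

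Day 6 is the one later day that both series share, and the change from day 0 to day 6 was compared between them in 1 fit of 72 libraries. It differed at 10 genes of the members, where 5.97% of all genes differed; 8 went lower in the neural series and 2 higher. The largest difference was that of Fgf8 (log2 -7.32 ± 1.51, adjusted p = 0.00116), whose 6-day values were 2.53, 54.8 and 16.2 CPM in EB and 0.381, 0.188 and 0.382 in NPC. Fgf4 followed with -5.54 ± 0.85, at 153, 40.3 and 101 CPM in EB against 1.2, 1.46 and 4.2 in NPC on day 6. Spry4 followed with -4.43 ± 0.89, at 58.7, 76.7 and 91.9 against 7.45, 3.05 and 3.82. In all 3 the day 6 libraries of the series do not overlap.

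The other lower genes differed less. Fgf17 differed by -4.01 ± 0.70, Etv4 by -3.63 ± 0.62, Etv5 by -3.39 ± 0.60, Spry2 by -3.05 ± 0.60 and Il17rd by -1.69 ± 0.46 on the log2 scale. On day 6 Etv5 was at 201, 362 and 402 CPM in EB and 34.3, 28.7 and 24.7 in NPC, and Il17rd at 92.4, 220.01 and 163 and 99.9, 43.9 and 37, where the ranges of Il17rd meet. The 2 that went higher in the neural series were Fgfr2 (3.18 ± 0.62, adjusted p = 0.00059) and Fgfr3 (3.14 ± 0.87, adjusted p = 0.0191). Fgfr2 was at 22.8, 13.4 and 14.5 CPM on day 6 of EB and 158, 224 and 148 on day 6 of NPC, and Fgfr3 at 1.24, 1.6 and 1.98 and 14.6, 34.3 and 38.3. Without the 6 EB libraries that stand apart, Fgfr3 missed the threshold (adjusted p = 0.0514) and the other 9 passed. Fgfr3 did not pass with library 2 of EB WT day 0 or library 1 of EB WT day 6 or library 2 or 3 of NPC WT day 0 left out (adjusted p 0.0512 to 0.0582). Il17rd did not pass with library 2 of EB WT day 6 or library 2 or 3 of NPC WT day 6 left out (adjusted p 0.0671 to 0.0711). The series also differ in medium and in retinoic acid, which was given in the neural series. The series and the way of culture cannot be told apart.

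The whole course was also tested in each of the other lines. In embryoid bodies 7 genes rose and 9 fell in CaPS, 8 and 8 in mCaPS and 6 and 8 in KO, where 26.7%, 36.3% and 25.3% of all genes passed. In all 4 lines Fgf3, Fgf16 and Fgfr3 rose and Etv5, Fgf2, Fgf4, Fgf7, Fgf17, Fgf18 and Spry4 fell, and of these 10 genes Fgf3, Fgf4, Fgf7, Fgf17 and Fgfr3 also passed in each line with any 1 library left out. The share of all genes that passed in all 4 lines was not counted. Etv4 fell in WT, CaPS and mCaPS, at 52.6, 60.5 and 42.1 CPM on day 0 and 16.4, 31.9 and 42.5 on day 10 in KO, where it did not pass (adjusted p = 0.106). Of the calls, 8 of 16 in CaPS ended without at least 1 of its libraries (Fgf1, Fgf2, Fgf12, Fgf13, Fgf18, Fgfr2, Il17rd and Spry4), 3 of 16 in mCaPS (Fgf9, Fgf11 and Fgfr2) and 3 of 14 in KO (Etv5, Fgf1 and Fgf16). Fgf18 in CaPS went from -2.67 ± 0.81 to -0.62, adjusted p = 0.578 without library 2 of day 0. Without the 6 libraries that stand apart, 15 genes passed in CaPS (without Fgf1, Fgf13 and Il17rd, with Spry1 and Spry2), 19 in mCaPS and 17 in KO.

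In the neural series 7 rose and 12 fell in CaPS, 9 and 11 in mCaPS and 7 and 13 in KO, where 48.6%, 46.2% and 43.3% of all genes passed. In all 4 lines 17 genes passed, and 11 of them passed in each line with any 1 library left out: Fgf9, Fgf12, Fgfr2 and Fgfr3 rose, and Fgf4, Fgf8, Fgf17, Etv4, Etv5, Spry2 and Spry4 fell. Here too the share of all genes that passed in all 4 lines was not counted. Fgf13 and Fgf10 passed in opposite directions in WT and mCaPS. Fgf13 fell in mCaPS, from 9.57, 6.58 and 8.9 CPM on day 0 to 3.05, 4.39 and 1.94 on day 8 (-1.41 ± 0.44, adjusted p = 0.01), though not with library 3 of mCaPS day 8 left out (adjusted p = 0.0507), and rose in WT. Fgf10 rose in mCaPS, from 1.33, 1.43 and 3.14 to 12.8, 5.76 and 13.1 CPM (2.43 ± 0.69, adjusted p = 0.00512), and fell in WT. In CaPS 2 calls ended without at least 1 library (Dusp6 and Il17rd), in mCaPS 5 (Dusp6, Fgf7, Fgf13, Fgf21 and Fgfr4) and in KO 5 (Dusp6, Fgf7, Fgf11, Fgf15 and Spry3).

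On day 8 of the neural series mCaPS differed from WT at 10 of 33 genes, 7 higher and 3 lower, where 18.5% of all genes passed. With each library left out in turn 4 to 12 genes passed, and Etv5, Fgf9, Fgf13 and Spry1 passed each time. Markers of other cells moved with this comparison. Neuron markers, of which 5 of 5 were lower, summed to 14.3 to 94.5 CPM in mCaPS and 774 to 1663 in WT, with none at 0. Endoderm markers, of which 3 of 6 were higher, summed to 325 to 634 and 17.6 to 75.4 CPM, with none at 0. The feeder fibroblast markers, which mesenchyme can also make, had 3 of 10 higher and summed to 658 to 2384 and 67.9 to 226 CPM, with 2 of 10 at 0 in libraries 1 and 2 of mCaPS. Their part in the results below was not tested.

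**Figure D3:**
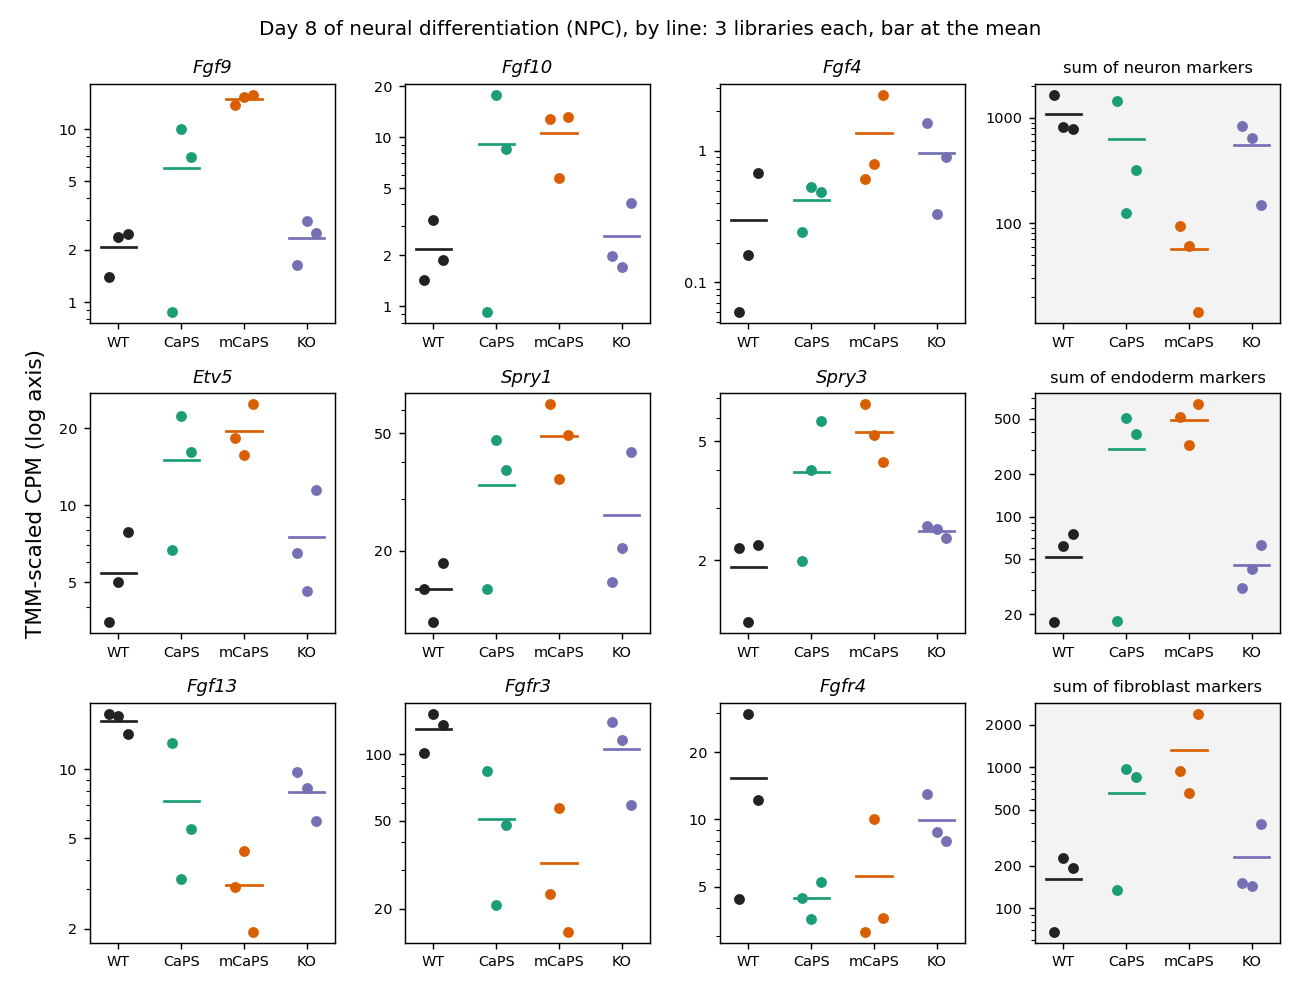
Levels of FGF genes on day 8 of the neural series in WT, CaPS, mCaPS and KO, in CPM on a log axis. Each point is 1 library and each bar the mean of 3. In mCaPS, Fgf9 and Etv5 lie above the WT libraries, and Fgf13 and Fgfr3 below.

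Etv5 was at 18.3, 15.7 and 24.7 CPM in mCaPS and 3.5, 5.01 and 7.84 in WT (log2 1.85 ± 0.32, adjusted p = 0.000777). Fgf9 was at 13.8, 15.2 and 15.8 CPM in mCaPS and 1.39, 2.37 and 2.48 in WT (log2 2.85 ± 0.67, adjusted p = 0.0053). Fgf10 was at 12.8, 5.76 and 13.1 and 1.42, 3.23 and 1.88 (log2 2.27 ± 0.68, adjusted p = 0.0217). Each of these had all mCaPS libraries above all WT libraries. Spry1 was at 62.7, 35 and 49.3 CPM in mCaPS and 14.8, 11.5 and 18.2 in WT (log2 1.73 ± 0.41, adjusted p = 0.00559). Spry3 was at 6.65, 5.23 and 4.27 and 2.2, 1.24 and 2.25 (log2 1.51 ± 0.49, adjusted p = 0.0324). Fgf4 stood near its lower end in both lines, at 0.607, 0.792 and 2.68 and 0.0593, 0.162 and 0.676 CPM (log2 2.24 ± 0.69, adjusted p = 0.0249), with 1 mCaPS library inside the WT range. Fgf21, a liver hormone of fasting, was at 1.78, 1.78 and 25.3 in mCaPS against 0.178, 0.0538 and 0.15 in WT (log2 6.22 ± 1.70, adjusted p = 0.0128). Fgf21 was highest in library 3 of mCaPS, and without that library its difference was 3.80, adjusted p = 0.156. Fgf10 did not pass with library 1 or 3 of WT day 8 or library 3 of mCaPS day 8 left out (adjusted p 0.066 to 0.0995). Fgf4 did not pass with library 1 or 2 of WT day 8 or library 3 of mCaPS day 8 left out (adjusted p 0.0965 to 0.264). The same was so of Fgf21 with library 1 or 2 of WT day 8 or library 3 of mCaPS day 8 left out (adjusted p 0.0507 to 0.156). Spry3 did not pass with any 1 of the 6 libraries other than library 2 of mCaPS day 8 left out (adjusted p 0.0534 to 0.119).

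The 3 lower genes were among those that rose in WT toward day 8. Fgf13 was at 3.05, 4.39 and 1.94 CPM in mCaPS and 17.4, 17 and 14.3 in WT (log2 -2.37 ± 0.45, adjusted p = 0.00132). Fgfr3 was at 23.3, 57.2 and 15.7 against 102, 151 and 135 CPM (log2 -2.01 ± 0.57, adjusted p = 0.0158). Fgfr4 was at 3.14, 10.01 and 3.62 against 4.42, 29.6 and 12.2 (log2 -1.46 ± 0.48, adjusted p = 0.035). Fgf13 and Fgfr3 do not overlap between the lines, and Fgfr4 does. Fgfr3 did not pass with library 1 or 3 of mCaPS day 8 left out (adjusted p 0.0574 to 0.103). Fgfr4 did not pass with library 2 of WT day 8 or library 1 or 3 of mCaPS day 8 left out (adjusted p 0.139 to 0.428). The change from day 0 to day 8 itself differed from that of WT at 5 genes, where 9.49% of all genes differed: Fgf9 (3.91 ± 1.05), Fgf10 (4.42 ± 0.97) and Etv5 (1.502 ± 0.44) went higher in mCaPS, Fgfr3 (-3.53 ± 0.82) and Fgf13 (-3.51 ± 0.63) lower. The difference of Etv5 did not pass with library 2 of WT day 0 or library 1 of mCaPS day 0 or library 1 or 2 of WT day 8 or library 3 of mCaPS day 8 left out (adjusted p 0.0525 to 0.104). That of Fgf9 did not pass with library 2 of WT day 0 left out (adjusted p = 0.0979).

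In the CaPS line none of the 33 passed against WT on day 8 (edgeR), where 0.0112% of all genes passed. An unadjusted p below 0.05 was found for 10 of the 33 and for 1567 of all 17818 genes. DESeq2 called 2, Etv5 and Fgfr4. Library 1 of CaPS lay apart from the other 2 in several of these genes. Etv5 was at 6.71, 22.3 and 16.1 CPM, Fgf9 at 0.872, 10.03 and 6.85, Fgf10 at 0.921, 17.9 and 8.45, Spry1 at 14.9, 47.4 and 37.7, Fgf13 at 13, 3.3 and 5.47 and Fgfr3 at 84.2, 20.7 and 47.7, so that in each library 1 is the nearest to WT. Neuron markers summed to 1452, 124 and 323 CPM in the same 3 libraries. Without library 1 of CaPS 5 genes passed: Etv5 (log2 1.84, adjusted p = 0.000759), Fgf9 (2.04, adjusted p = 0.0429), Fgf10 (2.62, adjusted p = 0.0114) and Spry1 (1.54, adjusted p = 0.0271) higher, and Fgf13 (-1.87, adjusted p = 0.0182) lower. Library 1 was singled out by its levels of these same genes, so leaving it out widens their difference from WT. No conclusion on CaPS is drawn from these calls. CaPS and mCaPS differed at none of the 33 (edgeR), where 1.59% of all genes did, and at 0 by DESeq2. Between them 5 of the 33 and 3256 of all 17818 genes had an unadjusted p below 0.05. Fgf13 passed there without library 2 of CaPS, its lowest CaPS library, higher in CaPS by 1.56, adjusted p = 0.0418.

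The line labelled KO also had 0 of 33 against WT on day 8 by edgeR, where 0.0505% of all genes passed, and 0 by DESeq2. An unadjusted p below 0.05 was found for 4 of the 33 and for 1520 of all 17818 genes. In KO, Etv5 was at 6.49, 4.62 and 11.5 CPM, Fgf9 at 1.64, 2.94 and 2.5 and Fgfr3 at 140.1, 116 and 59.1. mCaPS against KO on that day gave Fgf9 (2.66 ± 0.67), Etv5 (1.38 ± 0.32) and Spred2 (0.58 ± 0.17) higher in mCaPS and Fgfr1 (-0.77 ± 0.23) lower, where 6.42% of all genes passed. Each of these 4 calls rested on single libraries, and in a fit of the 2 groups alone Fgf9 was the 1 gene that passed. With 1 library left out 0 to 10 genes passed; the 10 were found without library 3 of KO, where Fgfr1 was lost and Dusp6, Fgf1, Fgf10, Fgf13, Fgf21, Fgfr3 and Spry1 were added. Fgf9 was lost with library 3 of mCaPS day 8 or library 1 or 2 of KO day 8 left out (adjusted p 0.0573 to 0.109). Etv5 was lost with library 3 of mCaPS day 8 or library 1 or 2 of KO day 8 left out (adjusted p 0.0763 to 0.0862). Spred2 was lost with library 1 or 2 of mCaPS day 8 or library 1 or 2 of KO day 8 left out (adjusted p 0.0577 to 0.197). Fgfr1 was lost with any 1 of the 6 libraries other than library 2 of mCaPS day 8 left out (adjusted p 0.0605 to 0.223). On day 6, Spry3 was higher in mCaPS than in WT (1.86 ± 0.49, adjusted p = 0.0425; 2.22% of all genes passed) and than in KO (1.83 ± 0.49, adjusted p = 0.0319; 4.11%), at 7.98, 4.7 and 7.73 CPM against 1.63, 2.3 and 1.69 and 1.35, 2.3 and 2.07. The first of these was lost with any 1 of the 6 libraries other than library 2 of mCaPS day 6 left out (adjusted p 0.109 to 0.204) and the other with any 1 of the 6 libraries other than library 2 of mCaPS day 6 left out (adjusted p 0.0909 to 0.172). Fgfr1 was lower in mCaPS than in KO on day 6 as well (-0.996 ± 0.23, adjusted p = 0.0129), though not with library 1 or 3 of mCaPS day 6 or library 2 of KO day 6 left out (adjusted p 0.0667 to 0.113). The WT libraries serve as control for each line, so these comparisons share them.

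On day 0 of the neural series the stem cells of the lines differed in a few ligands and in Fgfr3. Feeder markers moved with the ligands Fgf2, Fgf7 and Fgf10 and against Fgf1, which was higher in KO. Fgf7 was at 10.5, 26 and 3.3 CPM in WT, 7.57, 38.6 and 1.58 in CaPS, 0.665, 0.43 and 1.26 in mCaPS and 0.562, 0.37 and 0.412 in KO. It was lower in mCaPS than in WT (-4.09 ± 0.92, adjusted p = 0.0121; 3.02% of all genes passed) and in KO than in WT (-4.89 ± 0.97, adjusted p = 0.00314; 5.52%). Against WT, 8 of the 10 feeder markers were lower in mCaPS and 10 of 10 in KO. They summed to 305 to 3226 CPM in WT, 237 to 3214 in CaPS, 82.7 to 143 in mCaPS and 66.7 to 105 in KO, with 1 of 10 at 0 in libraries 1 and 2 of mCaPS, and their part in the difference was not tested. The difference of mCaPS in Fgf7 did not pass with library 2 of WT day 0 or library 1 or 2 of mCaPS day 0 left out (adjusted p 0.0813 to 0.112).

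**Figure D4:**
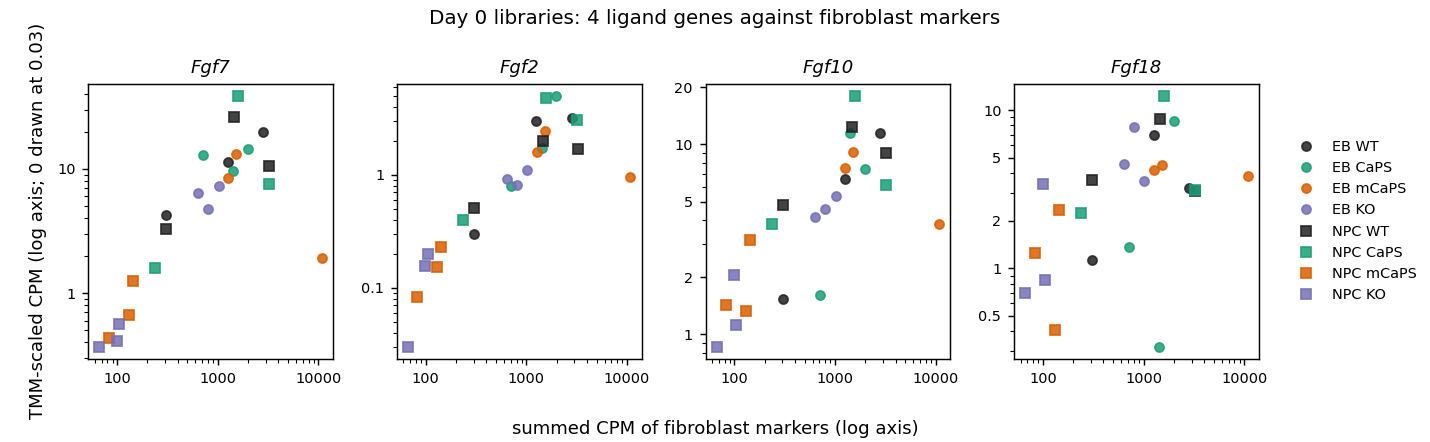
Day 0 levels of Fgf7, Fgf2, Fgf10 and Fgf18 in each library of 4 lines and both series (vertical axes) against the summed level of 10 feeder fibroblast markers in the same library (horizontal axes), all in CPM on log axes, with levels of 0 drawn at 0.03. Fgf7 is higher in libraries with a higher marker sum. The exception at the far right is library 3 of mCaPS in EB, in which precursor ribosomal RNA took most of the counts.

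Fgf10 was also lower in KO than in WT on day 0, at 1.12, 0.863 and 2.06 against 8.97, 12.3 and 4.78 CPM (-2.69 ± 0.70, adjusted p = 0.0212). Fgf2 and Fgf7 were higher in CaPS than in mCaPS (4.15 ± 1.13 and 4.35 ± 0.93, where 2.1% of all genes passed), with Fgf2 at 3.06, 4.79 and 0.395 and 0.154, 0.0819 and 0.228 CPM. Fgf10 did not pass with library 1 or 2 of WT day 0 or library 1 or 2 of KO day 0 left out (adjusted p 0.0585 to 0.127). In CaPS against mCaPS, Fgf2 did not pass with any 1 of the 6 libraries other than library 3 of CaPS day 0 left out (adjusted p 0.11 to 0.242). Fgf7 did not pass with library 2 of CaPS day 0 or library 1 or 2 of mCaPS day 0 left out (adjusted p 0.0931 to 0.228). Neither gene passed in a fit of the 2 groups alone (Fgf2 4.17, adjusted p = 0.0872, Fgf7 4.38, adjusted p = 0.118). Fgf1 and Fgfr3 were higher in KO than in WT. Fgf1 was at 4.66, 10.01 and 5.79 CPM in KO and 0.51, 0.78 and 2.1 in WT (2.59 ± 0.72, adjusted p = 0.0329), and Fgfr3 at 13.1, 11.6 and 3.86 and 3.44, 1.79 and 2.1 (1.97 ± 0.60, adjusted p = 0.0487), each with every KO library above every WT library, and neither passed in a fit of the 2 groups alone. Fgf1 did not pass with library 1 or 2 of WT day 0 or library 1 or 2 of KO day 0 left out (adjusted p 0.0687 to 0.16). Fgfr3 did not pass with any 1 of the 6 libraries other than library 3 of KO day 0 left out (adjusted p 0.0797 to 0.22). On day 0 of EB, Fgf1 was at 4.45, 5.21 and 7.58 CPM in KO and 1.96, 4.31 and 1.7 in WT, and did not pass.

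On day 10 of EB no line differed from WT at any of the 35 genes by edgeR, where 0.00562% of all genes passed for CaPS, 0.708% for mCaPS and 0.877% for KO. Each of these comparisons had 4 of the 35 genes at an unadjusted p below 0.05. Over all 17791 genes the counts were 763 for CaPS, 1173 for mCaPS and 1701 for KO. DESeq2 called 0 for CaPS, 2 (Fgf4 and Fgf17, lower) for mCaPS and 1 (Fgf4, higher) for KO. Without library 1 of KO, Fgf4 (2.54, adjusted p = 0.0107) and Etv4 (1.41, adjusted p = 0.0389) passed by edgeR. That library was the lowest of KO in both genes, so no conclusion is drawn from these calls. In mCaPS, some genes differed from CaPS and from KO. CaPS was above mCaPS in Fgf4 (3.59 ± 0.64, adjusted p = 0.00101) and Fgf17 (2.14 ± 0.45, adjusted p = 0.00553), where 3.18% of all genes passed. mCaPS was below KO in Fgf4 (-4.13 ± 0.65, adjusted p = 0.00142), Fgf17 (-2.47 ± 0.45, adjusted p = 0.00344) and Etv4 (-1.48 ± 0.36, adjusted p = 0.026), where 1.62% of all genes passed. Fgf17 did not pass with library 3 of mCaPS day 10 left out (adjusted p = 0.0611) in the first of these, nor with library 3 of mCaPS day 10 or library 3 of KO day 10 left out (adjusted p 0.0516 to 0.0635) in the second, and Etv4 did not pass with any 1 of the 6 libraries other than library 1 of KO day 10 left out (adjusted p 0.0831 to 0.266). In a fit of the 2 groups alone, neither gene passed between CaPS and mCaPS, and Etv4 did not pass between mCaPS and KO. Without the 6 libraries that stand apart, no line differed from WT, Fgf12 was added to the genes that differed between CaPS and mCaPS, and the 3 genes between mCaPS and KO passed. Gapdh on this day was at 3.47, 445 and 128 CPM in WT and 6.09, 399 and 51.1 in CaPS. It was at 12.8 to 20.2 CPM in mCaPS and KO. Between WT or CaPS and mCaPS or KO, the line and any difference in how libraries were made cannot be told apart. The WT libraries differ widely among themselves, so differences from WT may have been missed.

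**Figure D5:**
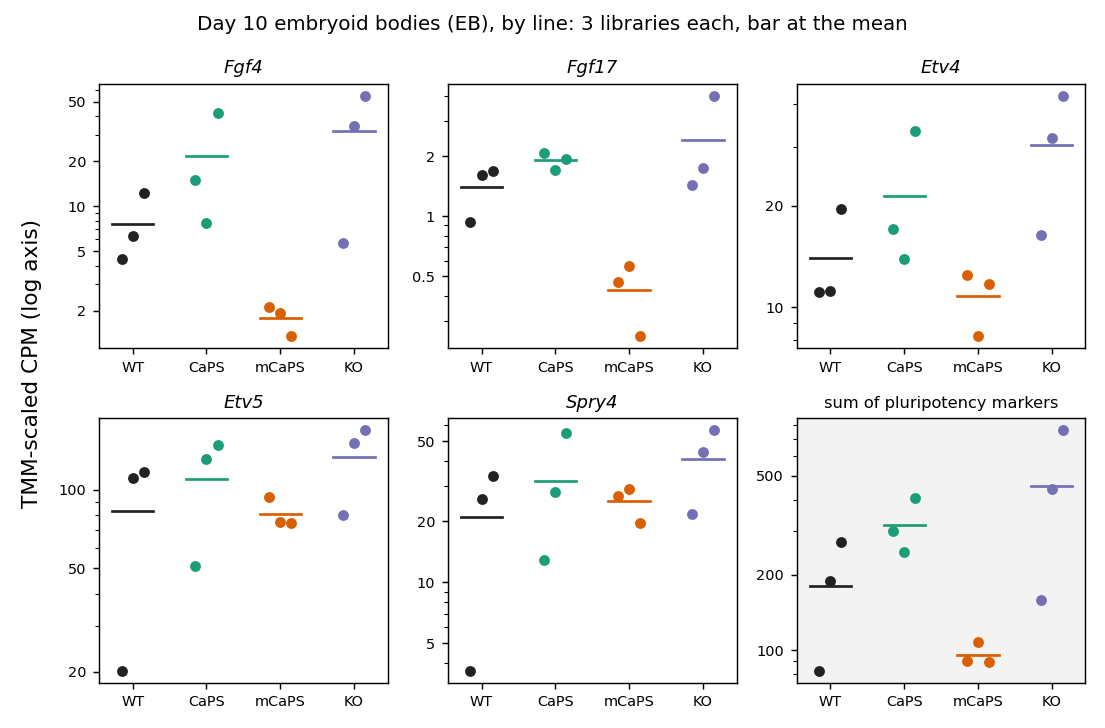
Levels of FGF genes on day 10 of embryoid bodies in WT, CaPS, mCaPS and KO, in CPM on a log axis. Each point is 1 library and each bar the mean of 3. The mCaPS libraries are the lowest in Fgf4 and Fgf17.

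Fgf4 on day 10 was at 4.4, 6.31 and 12.2 CPM in WT, 15, 7.67 and 42.2 in CaPS, 2.1, 1.94 and 1.35 in mCaPS and 5.68, 34.3 and 54.7 in KO. Fgf17 was at 0.934, 1.61 and 1.68, 2.06, 1.71 and 1.93, 0.47, 0.565 and 0.251 and 1.44, 1.74 and 4.01 CPM in the same order. In both genes every mCaPS library was below every other library of that day. Etv4 was at 12.5, 8.22 and 11.7 CPM in mCaPS and 16.4, 31.9 and 42.5 in KO, and Spry4 at 26.7, 29.1 and 19.6 and 21.9, 44.1 and 56.4. Pluripotency markers, of which 4 of 6 were lower in mCaPS than in CaPS and 4 of 6 than in KO, summed to 82.6 to 272 CPM in WT, 246 to 406 in CaPS, 89.3 to 108 in mCaPS and 159 to 759.5 in KO. Neuron markers, of which 5 of 5 were higher in CaPS than in mCaPS, summed to 75.7, 86.3 and 845 CPM in the CaPS libraries and 56.7, 32.5 and 42.8 in those of mCaPS. The part of these cells in the differences was not tested. Fgfr3 spread from 12.8 to 27.6 CPM in CaPS to 27.5 to 77 in mCaPS and did not pass (adjusted p = 0.143).

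Embryoid bodies of the CBX7-CaPS-R line, fitted on their own 9 libraries with 26 of the genes tested, showed 7 genes higher and 5 lower on day 10 than on day 0, where 21.5% of all genes passed. Fgf17, Etv4, Etv5, Fgf7 and Fgf4 fell. The fall of Fgf4 was 0.78 ± 0.23 on the log2 scale, from 148, 147 and 156 CPM to 114, 54.7 and 76.9. In the same scaling over shared genes, WT held 4.54, 6.59 and 12.7 CPM on day 10; the tables are separate and no test was made across them. Several calls of this line rested on single libraries, and 5 of the 12 passed in a fit of days 0 and 10 alone. Fgf4 was lost with library 2 or 3 of CaPS-R day 0 or library 3 of CaPS-R day 10 left out (adjusted p 0.0652 to 0.0777). Etv5 was lost with library 2 of CaPS-R day 0 or library 3 of CaPS-R day 10 left out (adjusted p 0.0546 to 0.104). Fgf17 was lost with library 1 or 2 of CaPS-R day 0 or library 1 of CaPS-R day 10 left out (adjusted p 0.0518 to 0.0724). Those that rose were Fgf1, Fgf8, Fgf16, Fgfr1, Fgfr3, Il17rd and Spry1. Of these, Fgf1 was lost with library 3 of CaPS-R day 0 or library 3 of CaPS-R day 10 left out (adjusted p 0.0501 to 0.0646). Fgfr1 was lost with library 1 or 2 of CaPS-R day 0 or library 3 of CaPS-R day 10 left out (adjusted p 0.1 to 0.145), and Fgfr3 with library 3 of CaPS-R day 10 left out (adjusted p = 0.0532). Il17rd was lost with library 1 or 2 of CaPS-R day 0 or library 1 or 3 of CaPS-R day 10 left out (adjusted p 0.0758 to 0.174). Spry1 was lost with any 1 of the 6 libraries other than library 2 of CaPS-R day 10 left out (adjusted p 0.0574 to 0.261). In the neural series of the same line 7 rose and 8 fell of 24 tested, where 47.8% of all genes passed. There Fgf4 went from 187, 197 and 141 to 0.486, 0.273 and 0.135 CPM and Etv5 from 369, 319 and 298 to 8.19, 5.28 and 3.79. Fgfr1 rose there (0.82 ± 0.17, adjusted p = 0.00225), while it fell in WT; the fits are separate and the difference was not tested.

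Some members stayed near the floor throughout. Fgf6, a ligand of muscle, had 26 counts over the 72 libraries of 4 lines, and Fgf20 had 145. Fgf22, which acts at synapses, lay at 0 to 1.28 CPM and Fgf23, the bone hormone of phosphate balance, at 0 to 1.28. Fgf12 stayed at 0 to 2.86 CPM in EB, its top value in library 3 of CaPS on day 10, the library with the highest neuron marker sum of that group. Fgf15 was not among those near the floor: it lay at 2.76 to 47.5 CPM in EB and passed in no comparison of days in WT there.

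Other genes of the pathway were counted in 3 of these comparisons, in which 29.2% (EB WT), 52.4% (NPC WT) and 18.5% (mCaPS against WT) of all genes passed. Of 16 co-receptors, binding proteins and heparan sulfate enzymes, 3 rose and 1 fell in WT embryoid bodies by day 10, from Gpc3, a glypican (3.86 ± 0.56), to Fgfbp1, which carries FGFs from the matrix (-3.02 ± 0.69). Of 22 genes of the RAS to ERK relay 3 rose and 1 fell, from the exchange factor Sos2 (1.48 ± 0.42) to the adaptor Gab1 (-1.67 ± 0.57). Of 10 other ERK feedback and target genes 2 rose and 3 fell, from Dusp4 (1.21 ± 0.40) to Fos (-3.43 ± 0.72). In the neural series by day 8 the counts were 9 and 1 of 16 (Fgfbp3 4.27 ± 0.81 to Fgfbp1 -5.62 ± 0.86), 5 and 4 of 22 (Sos2 2.20 ± 0.28 to Gab1 -2.21 ± 0.28) and 2 and 4 of 10 (Spsb1 2.31 ± 0.34 to Egr1 -3.62 ± 0.70). In mCaPS against WT on day 8 they were 2 and 1 (Gpc3 2.14 ± 0.40 to Hs6st1 -0.53 ± 0.18), 3 and 1 (Shc1 1.83 ± 0.37 to Grb2 -0.62 ± 0.18) and 0 and 1 (Dusp4 -1.82 ± 0.38).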

How the data were processed

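Ribosomal-RNA-depleted RNA of 90 libraries was sequenced, 3 in each of 30 groups of line, series and day. The deposited values are whole-number read counts per gene, made by the authors, whose processing notes name STAR 2.7.0, cutadapt 1.14, HOMER 4.10.4, edgeR and featureCounts 1.6.3 with mouse build mm10. The role of each program, the annotation and the strand setting are not given in the sources used here. Without the strand setting, reads of overlapping antisense genes cannot be told apart. Each series has 1 table of WT, CaPS, mCaPS and KO and a separate one of CaPS-R, in which part of the genes is held. The last line of each CaPS-R table (cut short in NPC, without a line end in EB), names that read as dates (23 in EB, 22 in each CaPS-R table) and 9 columns that match no library were not used here. No 2 of the 72 libraries of the 4 lines held identical counts.

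Counts were fitted with edgeR 4.0.16 (R 4.3.3, limma 3.58.1): genes kept by filterByExpr (17791 in EB, 17818 in NPC, 18407 in the fit of both), TMM scaling, and a robust quasi-likelihood model of the 36 libraries of a series in 12 groups, or of all 72 libraries in 24 groups. CaPS-R was fitted on its own 9 libraries (13057 and 12763 genes). Tests were two-sided F tests with p-values adjusted by Benjamini and Hochberg over all genes tested, and a gene was called at an adjusted p below 0.05. The SE is the log2 fold change over the square root of F. The code of the fit was also run on simulated counts with known changes and the same spread for every gene. That run does not show how well changes in the FGF genes are found. Libraries of the 4 lines held 10.6 M to 59.3 M counts and those of CaPS-R 11 M to 110 M, Rn45s included. Where a group of 3 libraries had 3 counts or fewer in all, no fold change is given.

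Alternatives were size factors by the RLE method, DESeq2 1.42.0, no filter, Rn45s (precursor of ribosomal RNA) removed, only the 2 groups compared, a replicate block, each library left out, and no EB libraries numbered 1 of WT and CaPS. Leaving out the 2 EB libraries with the highest Rn45s share was added after the data had been seen. Every gene of the group is named. Values in single libraries are given for genes called in a main comparison or above 20 CPM in a group mean, though not for every group. Fgf15 in EB is given as a range. Of partner genes only the called ones with the largest and smallest fold are named. The group, the lists of partners and markers and the tests were chosen with earlier results of these data known. Same-numbered libraries did not all deviate together. Of the correlations of their deviations from the group means, 26 of 54 across lines and 29 of 36 across days were above 0.1 in EB. In NPC 25 of 54 and 11 of 36 were. The numbers were not taken as pairs in the main fit. Across days of EB they did carry a likeness, with a median correlation of 0.195 for same-numbered libraries and -0.104 for others. In WT, Gapdh was at 10.3, 6.08 and 3.47 CPM in library 1 of days 0, 6 and 10, and at 353, 496 and 445 in library 2. Of the fits made, the replicate block takes this likeness in and the main fit does not. The comparisons with WT share the WT libraries.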

Additional observations from a re-analysis of the deposited data

Results flagged for a closer look

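The change of 10 genes from day 0 to day 6 in WT differed between the embryoid body and the neural series (edgeR, 1 fit of both series). Over all genes, 5.97% differed. The log2 difference, neural less embryoid body, was -7.32 for Fgf8, -5.54 for Fgf4, -4.43 for Spry4, -4.01 for Fgf17, -3.63 for Etv4, -3.39 for Etv5, -3.05 for Spry2 and -1.69 for Il17rd. For the receptors Fgfr2 and Fgfr3 it was 3.18 and 3.14. The calls of Fgfr3 and Il17rd were lost with certain single libraries left out. The change of 5 genes from day 0 to day 8 of the neural series differed between mCaPS and WT, where 9.49% of all genes differed. The log2 difference, mCaPS less WT, was 4.42 for Fgf10, 3.91 for Fgf9, 1.502 for Etv5, -3.51 for Fgf13 and -3.53 for Fgfr3. Of these, the calls of Etv5 and Fgf9 did not hold with every single library left out.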

How the results depend on the processing

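Of 1702 values of called FGF genes under other settings of the fit, 1611 kept their direction and their side of the threshold and 91 lost the call; with 1 library left out 1337 of 1632 did and 295 lost it, and none changed sign. DESeq2 called 2 genes in EB mCaPS against WT on day 10, 1 in EB KO against WT and 2 in NPC CaPS against WT on day 8, where edgeR called 0 each time. For EB CaPS against mCaPS on day 10, 2 genes by the model of all libraries became 0 in a fit of the 2 groups alone, which has fewer libraries to set the spread, and 4 (with Fgf12 and Fgfr3 added) without the 2 EB libraries of the highest Rn45s share; the cause was not tested. With each library left out in turn, 0 to 2 genes passed in EB KO against WT, 1 to 3 in EB CaPS against mCaPS, 0 to 5 in NPC CaPS against WT, 4 to 12 in NPC mCaPS against WT, 0 to 1 in NPC CaPS against mCaPS, 1 to 3 in EB mCaPS against KO and 0 to 10 in NPC mCaPS against KO on the last days. On earlier days of NPC, 4 genes became 8 in KO against WT without library 3 of KO day 0, 2 became 4 in CaPS against mCaPS without library 3 of CaPS day 0, 2 became 4 in mCaPS against KO and 1 became 2 in mCaPS against WT without library 2 of mCaPS day 6. In WT over the whole course 12 to 16 passed in EB and 20 to 22 in NPC, against 18 and 24, and 9 to 10 in the comparison of the series on day 6, against 10. In the fit of the 2 groups alone, 12 passed in EB WT (Etv5, Fgf10, Fgf11, Fgf13, Fgf18 and Fgfr4 were lost) and 20 in NPC WT (Fgf8, Fgfr1, Spred1 and Spry3 were lost). In that fit 5 of 16 passed in EB CaPS over the whole course and 7 of 11 in EB WT between days 6 and 10, and 7 against 2 in NPC mCaPS against KO on day 6 and 4 against 1 in NPC mCaPS against WT on day 0. The replicate block joins libraries by their number. It gave 18 genes in EB WT, 22 in NPC WT and 12 in NPC mCaPS against WT. It also gave 2 in EB CaPS against mCaPS, 3 in EB mCaPS against KO and 6 in NPC mCaPS against KO (4 without the block). In the comparison of the series it gave 12, and in EB WT between days 6 and 10 it took 11 to 15. It gave 0 for EB lines and NPC CaPS and KO against WT and for NPC CaPS against mCaPS on the last day. In NPC CaPS against mCaPS on day 0 it took the 2 calls, Fgf2 and Fgf7, to 0, in NPC mCaPS against KO on day 6 it took 2 to 5, and in EB WT by day 6 it took 5 to 8. With 3 libraries a group, genes near 1 CPM or lower rest on few counts, and differences there may not have been detectable at this depth.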
